A study of Mus musculus with 12 samples.

Results

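The subject is a set of abundant structural and nuclear noncoding RNAs in basal cells sorted from the epithelium of the mouse hard palate. Its 8 genes were chosen by name: Rn45s, Rmrp, Rpph1, Rn7sk, Terc, Malat1, Neat1 and Gas5. The choice was made with the high counts of some of them known, so their levels are given as a description with no test. Of these 8 genes, 7 had a row among the 23420 genes counted, all 7 passed the filter on low counts, and 11719 genes passed it in all. Rn7sk had no row under that name and was not analysed here. The libraries came from 6 FVB mice with the genotype K5-tTA (+/-); tetO-H2B-GFP (+/-), coded B1M, B3M, B4M, B5M, B7F and B7M, all on a 14-day doxycycline chase. In such mice a keratin 5 promoter drives a transactivator that turns on a histone H2B fused to green fluorescent protein, and doxycycline turns it off, so that the label is diluted as cells divide. Cells carrying CD49f (integrin α6) were sorted into a bright fraction (GFP-HI, labelled infrequently dividing) and a dim fraction (GFP-LO, labelled frequently dividing), 1 library of each per mouse. The mice were 49 days old, apart from B7F at 71 days. No group without the transgenes or without the chase was analysed here.

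These RNAs encode no conserved protein, and most of them work as parts of ribonucleoprotein particles. Rn45s is the long precursor from which RNA polymerase I and its processing factors produce the 18S, 5.8S and 28S ribosomal RNAs. Rmrp and Rpph1 are the RNA subunits of RNase MRP, which cuts the ribosomal RNA precursor, and of RNase P, which trims transfer RNA precursors, and both enzymes share most of their proteins. Terc carries the template from which telomerase copies telomere repeats. Malat1 accumulates in nuclear speckles, Neat1 builds paraspeckles, and Gas5 is the host transcript of several small nucleolar RNAs and is degraded by nonsense-mediated decay.

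Counts per library summed to 6678444 to 10547665, of which 4030757 to 6419834 lay outside Rn45s, and 12312 to 19023 genes were detected. The lowest numbers of detected genes among the GFP-HI libraries were 12312 in B1M and 12810 in B3M. Fold changes of the analysed RNAs and their tests between mice are given with and without these 2 mice. Ranges and orders of the mice are given with them only. Summed markers of basal keratinocytes stood at 13812 to 23401 CPM (a count divided by a library size that typical genes set) over the 12 libraries. Summed markers of immune cells reached at most 24.2 CPM, those of melanocytes 6.41, of endothelium 4.91 (with Emcn at 0) and of muscle 3.39 CPM. Fibroblast markers summed to 253 to 469 CPM in GFP-HI and 356 to 617 CPM in GFP-LO. Most of that was Dcn, which edgeR called lower in GFP-HI (log2 −0.49, adjusted p = 0.0031). Col1a1 and Col1a2, also tested, had the opposite sign (log2 1.55 and 1.11, edgeR adjusted p = 0.69 and 0.82). They averaged only 2.88 and 2.60 CPM in GFP-HI, against 0.88 and 0.85 CPM in GFP-LO. The part of these markers in the results was not tested. The RNA came from pools of 200 to 1000 cells, and a lower level in such a pool does not tell fewer cells of a type from less RNA per cell. Nothing says whether ribosomal RNA was depleted, so the level of Rn45s is that of the libraries and not necessarily that of the cells.

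Together the 7 RNAs held 34.1% to 61.1% of the counts of a library, and their levels spanned more than 3 powers of 10. Per kilobase of exon, so that genes of different length can be compared, the mean levels over the 12 libraries were 74786 CPM for Rn45s, 32517 for Rmrp, 15812 for Rpph1, 991 for Malat1, 324 for Gas5, 153 for Neat1 and 24.5 for Terc. Among all genes these levels took ranks 1, 2, 5, 62, 157, 318 and 1618. In that order the ranges of Rn45s and Rmrp over libraries overlapped, as the lowest Rn45s level was 48123 and the highest Rmrp level 58652 CPM per kilobase. By plain counts Malat1 ranked 5 and Rmrp 4, since Malat1 is the longer transcript. Terc went against the description as abundant: it had 38 to 180 counts per library and rank 7838 by count.

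**Figure D1:**
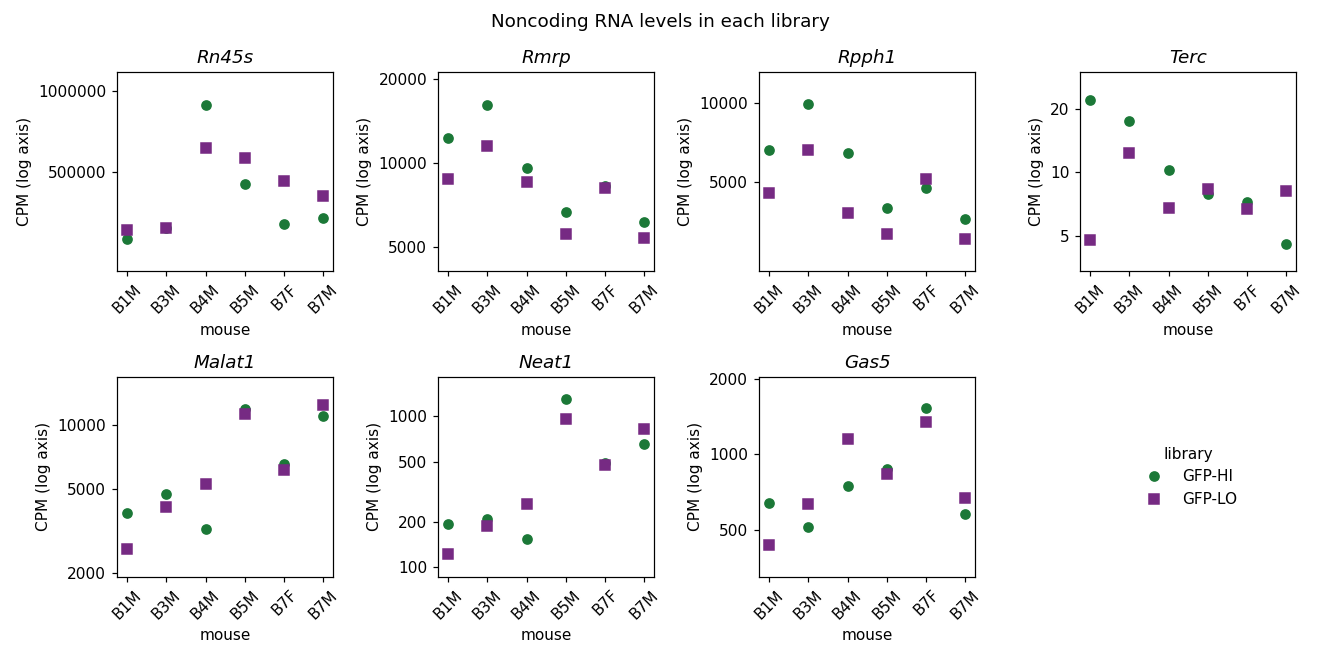
Level of each of the 7 RNAs (CPM, log axis) in the GFP-HI library (circle) and the GFP-LO library (square) of each mouse, 1 point per library. For Rmrp the circle lies above the square in 6 of 6 mice, and for Malat1 and Neat1 both libraries of B5M and of B7M lie above both libraries of B1M, B3M and B4M.

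By plain counts the Rn45s row ranked first in each library, while per kilobase Rmrp stood above it in the GFP-HI library of B3M (58652 against 52648 CPM per kilobase). The row may hold reads of the mature ribosomal RNAs cut from the precursor, and these were not told apart from reads of the precursor. Rn45s is annotated as 1 exon of 5833 bases on chromosome 17 (39842997 to 39848829, plus strand, mm10), but the precursor is transcribed from many near-identical copies elsewhere. How the reads of those copies were assigned is not stated, so the row may hold or lose some of them. In GFP-HI its share of counts was lowest in B1M (31.5%), with a median of 36.7% and a highest value of 59.8% in B4M. In GFP-LO it was again lowest in B1M (33.8%) and highest in B4M (51.3%), with a median of 43.2%. The order of mice was thus similar in both fractions, and the groups overlapped. Counting error, which is all a binomial interval covers, was at most 0.036 points either way (95% Wilson interval). Within mice the share was lower in GFP-HI in 5 of 6, by 1.77 to 8.44 percentage points, and higher by 8.41 points in B4M. The mean difference was −2.51 ± 5.90 points (SD, n = 6; exact two-sided sign-flip permutation p = 0.3125, smallest possible 0.031). Without B4M, the only mouse with a higher share in GFP-HI, the mean difference was −4.69 points. The 5 remaining mice then all have a lower share by the choice of mouse. That choice also fixes the exact sign-flip p at 0.0625, the smallest that 5 pairs allow, so no conclusion is drawn from it. With any other single mouse left out, the mean difference was −2.66 to −1.32 points (exact sign-flip p at least 0.375). Without B1M and B3M together it was −2.73 points (exact sign-flip p = 0.5).

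On the scaled level Rn45s was likewise not called. The GFP-HI mean was 430048 ± 232787 CPM, against 442400 ± 129258 CPM for GFP-LO (SD, n = 6 each). The scaling is set by typical genes and not by the library total, so these values are not shares. The log2 fold change of GFP-HI over GFP-LO was −0.12 ± 0.11 (SE; edgeR's quasi-likelihood test, Benjamini-Hochberg adjusted p = 0.85). It was −0.25 without B4M (adjusted p = 0.37) and −0.15 without B1M and B3M together (adjusted p = 0.81). With no filter on low counts edgeR called Rn45s, at −0.13 (adjusted p = 0.0056), and DESeq2 did not (−0.11, adjusted p = 0.82).

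Rmrp and Rpph1 were the 2 RNAs with the smallest p-values between the fractions, and neither passed the threshold over all genes. Rmrp is 1 exon of 275 bases on chromosome 4 (43492785 to 43493059, minus strand), 306 bases from Ccdc107. Rpph1 is 1 exon of 325 bases on chromosome 14 (50807447 to 50807771, minus strand), 175 bases from Parp2. In the comparison of the fractions these neighbours had log2 fold changes of −0.04 (Ccdc107) and −0.02 (Parp2). Mouse has several RNase P RNA-like genes, Rprl1, Rprl2 and Rprl3. The sequences of Rmrp, Rpph1 and Rprl2 are shown because they bear on which reads a row can hold. They are GENCODE M21 transcripts on GRCm38 (the same assembly as mm10), Rmrp over its whole counted row and the first 240 bases of Rpph1 (chr14:50807528-50807767, minus strand) and of Rprl2 (chr3:22251374-22251613, plus strand). Capitals mark the longest run that Rmrp shares with Rpph1, and in the other two sequences the longest run that they share with each other.
Rmrp: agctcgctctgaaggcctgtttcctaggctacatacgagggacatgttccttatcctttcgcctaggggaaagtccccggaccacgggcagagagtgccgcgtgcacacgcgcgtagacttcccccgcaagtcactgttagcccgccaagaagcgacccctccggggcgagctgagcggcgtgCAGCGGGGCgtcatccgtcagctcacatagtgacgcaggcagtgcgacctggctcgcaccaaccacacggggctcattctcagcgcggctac
Rpph1: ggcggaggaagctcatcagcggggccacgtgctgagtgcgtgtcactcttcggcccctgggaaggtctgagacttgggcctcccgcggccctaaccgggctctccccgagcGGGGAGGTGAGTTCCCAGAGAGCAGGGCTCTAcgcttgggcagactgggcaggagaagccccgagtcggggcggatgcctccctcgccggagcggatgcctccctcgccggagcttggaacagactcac
Rprl2: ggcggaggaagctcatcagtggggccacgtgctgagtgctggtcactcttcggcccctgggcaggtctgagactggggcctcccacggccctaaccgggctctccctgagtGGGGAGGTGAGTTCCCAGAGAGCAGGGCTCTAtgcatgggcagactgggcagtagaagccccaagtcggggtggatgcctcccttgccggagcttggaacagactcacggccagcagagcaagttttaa
Rmrp and Rpph1 shared no run longer than 9 bases. Rpph1 and Rprl2 shared a run of 32 bases and were identical in 86.0% of 258 aligned positions. Rpph1 and Rprl3 shared a run of 37 bases, with 86.5% identity. Reads from such copies may have been split or lost in counting, so the values of Rpph1 and its copies are uncertain singly.

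In GFP-HI, Rmrp ranged from 6168 CPM in B7M through a median of 8960 to 16129 CPM in B3M. In GFP-LO it ranged from 5400 CPM in B7M through a median of 8391 to 11533 CPM in B3M. The groups overlapped, but within each of the 6 mice the GFP-HI library had the higher value, by log2 0.49 in B1M, 0.48 in B3M, 0.27 in B5M, 0.19 in B7M, 0.16 in B4M and 0.02 in B7F. The log2 fold change was 0.27 ± 0.07 (SE; edgeR adjusted p = 0.15).

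For Rpph1 the GFP-HI libraries ran from 3609 CPM (B7M) to 9937 CPM (B3M) with a median of 5593. The GFP-LO libraries ran from 3018 CPM (B7M) to 6632 CPM (B3M) with a median of 4173. GFP-HI was higher in 5 of 6 mice, by log2 0.26 to 0.76, and lower by 0.12 in B7F. The log2 fold change was 0.39 ± 0.09 (SE; edgeR adjusted p = 0.11). Summing Rpph1 with Rprl1, Rprl2 and Rprl3, whose counts made up 10.54% to 15.72% of that sum, left it at 0.39 ± 0.09 (adjusted p = 0.12).

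Whether these 2 RNAs count as changed depended on the test. DESeq2 called both, Rmrp at log2 0.28 (adjusted p = 0.012) and Rpph1 at 0.40 (adjusted p = 0.0017). edgeR with no filter on low counts called both as well, at 0.25 (adjusted p = 0.0012) and 0.38 (adjusted p = 2.0e-07). That fit gave far smaller p-values for abundant RNAs in other tests too. In edgeR's test between mice the adjusted p went from 0.0017 to 2.3e-194 for Rn45s and from 3.9e-04 to 4.4e-130 for Malat1. Its p-values are therefore not comparable with those of the filtered fits. Without B7F edgeR called Rpph1 (0.50, adjusted p = 0.019) and not Rmrp (0.32, adjusted p = 0.079). Without B1M and B3M, the mice with the largest Rmrp differences, Rmrp had 0.16 (adjusted p = 0.63) and Rpph1 0.31 (adjusted p = 0.27). The copies had the same sign: Rprl3 averaged 839 ± 290 CPM in GFP-HI against 650 ± 206 CPM (log2 0.36, adjusted p = 0.33), and Rprl2 averaged 75.3 ± 45.3 against 53.8 ± 38.8 CPM (SD, n = 6 each; log2 0.64, adjusted p = 0.14). Rprl1 had log2 0.49 at under 4 CPM (adjusted p = 0.85).

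**Figure D2:**
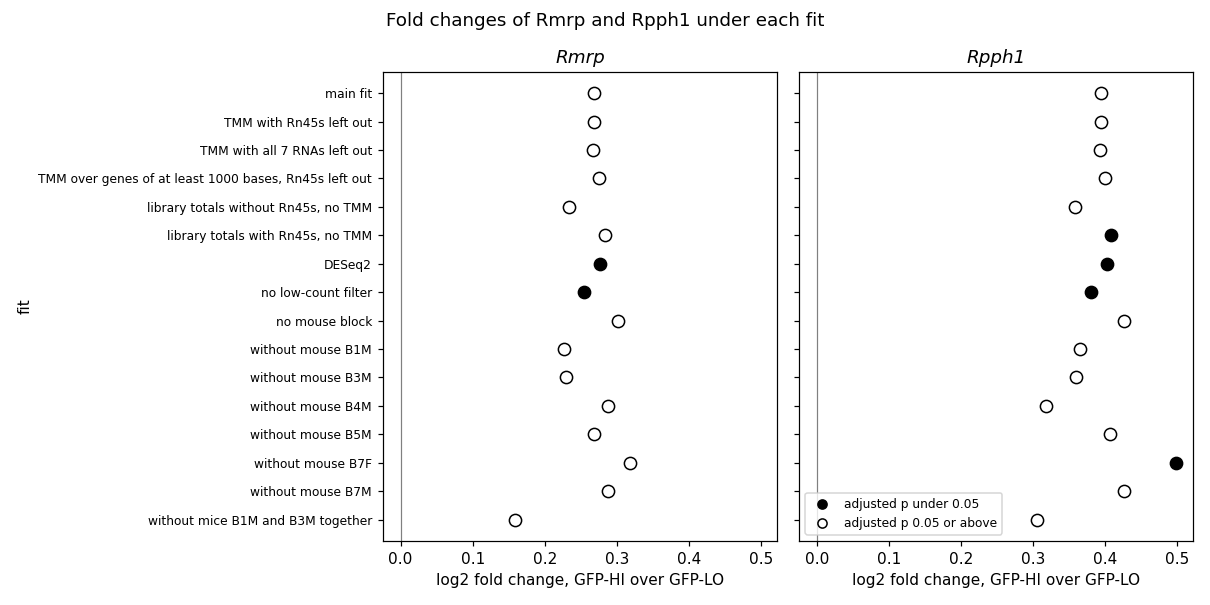
Log2 fold change of Rmrp (left) and Rpph1 (right), GFP-HI over GFP-LO, under each fit. Filled points have an adjusted p under 0.05. Each point lies above 0, and Rmrp runs from 0.16 without B1M and B3M to 0.32 without B7F.

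Gene length moved with these values. The 26 tested genes of 198 to 412 bases with a mean of at least 10 CPM, outside the set and the histone clusters, had a median log2 fold change of 0.19. The 52 such genes of 221 to 484 bases had 0.12. Both groups include the Rpph1 copies Rprl2 and Rprl3, of 238 and 237 bases. Against these genes of like length, a comparison added after the values were seen, the difference between the fractions was 0.08 for Rmrp and 0.27 for Rpph1. The part of gene length in the 2 differences was not tested. The ratio of Rmrp to Rpph1 needs no scaling. It was 1.49 to 2.26 over the 12 libraries, and it was higher in GFP-LO in 5 of 6 mice.

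Terc is 1 exon of 397 bases on chromosome 3 (96414437 to 96414833, minus strand). The first 60 bases of the longer GENCODE M21 transcript (chr3:96414800-96414859, minus strand), which starts upstream of the counted row, are shown with the telomere repeat template in capitals, the part that defines its function and that lies inside the row.
Terc: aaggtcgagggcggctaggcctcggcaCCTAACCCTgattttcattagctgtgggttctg
The letters CCTAACCCT were found, on either strand, in 0.225% of 32851 RefSeq promoter windows of 300 bases (GRCm38.p6). In GFP-HI the level of Terc ran from 4.59 CPM in B7M through a median of 9.11 to 22.1 CPM in B1M. In GFP-LO it ran from 4.77 CPM in B1M through a median of 7.50 to 12.4 CPM in B3M. B1M thus gave both the highest GFP-HI and the lowest GFP-LO value, and GFP-HI was higher in 4 of 6 mice. The log2 fold change was 0.41 ± 0.34 (SE; edgeR adjusted p = 0.83), and without B1M and B3M it was −0.05.

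Malat1 and Neat1 are neighbours on chromosome 19, on the minus strand and 39631 bases apart. Malat1 is counted over 1 exon of 6982 bases (5795690 to 5802671) and Neat1 over 1 exon of 3177 bases (5842302 to 5845478). GENCODE M21 has a Neat1 transcript of 20771 bases, from 5824708 to 5845478, so the row measures the 5′ part that the short and the long transcript share. The long forms of both do not end in a poly(A) tail: RNase P cuts off a tRNA-like RNA behind them, which leaves an end with U-rich and A-rich stretches. The stretch of 80 bases up to and including the A-rich end is shown for both (Malat1, chr19:5795982-5796061; Neat1, chr19:5824708-5824787; GENCODE M21, minus strand), with the letters AGCAAAA in capitals.
Malat1: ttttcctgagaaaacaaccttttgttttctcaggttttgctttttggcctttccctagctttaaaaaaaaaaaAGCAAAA
Neat1: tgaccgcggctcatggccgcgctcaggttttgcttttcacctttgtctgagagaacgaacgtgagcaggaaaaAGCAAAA
In Malat1 these letters occur once, inside the counted row. In Neat1 they occur 4 times and the stretch shown is the transcript's end, outside the counted row. On either strand they were present in 5.22% of the promoter windows.

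Between the fractions neither RNA was called. Malat1 ranged in GFP-HI from 3244 CPM in B4M through a median of 5640 to 11851 CPM in B5M. In GFP-LO it ranged from 2605 CPM in B1M through a median of 5700 to 12452 CPM in B7M. GFP-HI was higher in 4 of 6 mice, and the log2 fold change was 0.01 ± 0.12 (SE; edgeR adjusted p = 0.99). Neat1 ran from 154 CPM (B4M) to 1295 CPM (B5M) in GFP-HI, with a median of 349. In GFP-LO it ran from 121 CPM (B1M) to 958 CPM (B5M), with a median of 367. It was also higher in GFP-HI in 4 of 6 mice, with a log2 fold change of 0.04 ± 0.15 (SE; adjusted p = 0.98). The signs flipped under some of the 15 other fits, where Malat1 ran from −0.18 to 0.15 and Neat1 from −0.15 to 0.19.

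The 2 RNAs had the same sign as each other within each of the 6 mice. GFP-HI was below GFP-LO for both in B4M, by log2 0.71 for Malat1 and 0.77 for Neat1, and in B7M, by 0.18 and 0.32. It was above for both in the other 4 mice, most in B1M (0.56 and 0.66). Across the 12 libraries, 2 of each mouse and all with the same scaling, Pearson's r of their log2 levels was 0.97, and r of the 6 within-mouse differences was 0.94. The ratio of Malat1 to Neat1 nevertheless differed between mice: it was 19.95 to 22.8 in the 6 libraries of B1M, B3M and B4M and 9.15 to 16.6 in the 6 libraries of B5M, B7F and B7M, with no overlap between these mice.

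Gas5 has 4 exons of 2554 bases in all on chromosome 1 (161035166 to 161038537, plus strand), and its introns hold small nucleolar RNA genes. In GFP-HI it ran from 513 CPM in B3M through a median of 695 to 1522 CPM in B7F. In GFP-LO it ran from 434 CPM in B1M through a median of 752 to 1339 CPM in B7F. B7F was highest in both fractions. It is the mouse of another age, and the one with Xist, the RNA of the inactive X chromosome in females, at a high level (3320 CPM in its GFP-HI library, 2920 CPM in its GFP-LO library, against at most 4.81 CPM in the other mice). Age, sex and this single animal cannot be told apart. GFP-HI was higher in 3 of 6 mice (log2 fold change −0.05 ± 0.12 SE, edgeR adjusted p = 0.95). Without B1M and B3M the log2 fold change was −0.14 (edgeR adjusted p = 0.76). Snord47, a small nucleolar RNA of a Gas5 intron with a row of its own, was likewise highest in B7F, at 361 (GFP-HI) and 366 CPM (GFP-LO). Whether the Gas5 row also holds reads of small RNAs encoded within its span was not tested. Genes of at most 500 bases as a whole were also above the mean of the mice in B7F, by a median log2 of 0.30 (0.42 in B4M).

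In the comparison of the fractions, then, 0 of the 7 RNAs were called by edgeR, against 0.529% of all 11719 genes (62 genes). At an unadjusted p under 0.05 there were 2 of the 7, and 7.24% of all genes. DESeq2 called 2 of the 7 and 143 of all genes. Leaving Rn45s out of the scaling changed the scaling of no library by more than 1.21% and left each of the 7 fold changes on the same side of the threshold. Scaling by library totals that include Rn45s changed it by up to 48.6%, and Rpph1 was then called (log2 0.41, adjusted p = 0.041).

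**Figure D3:**
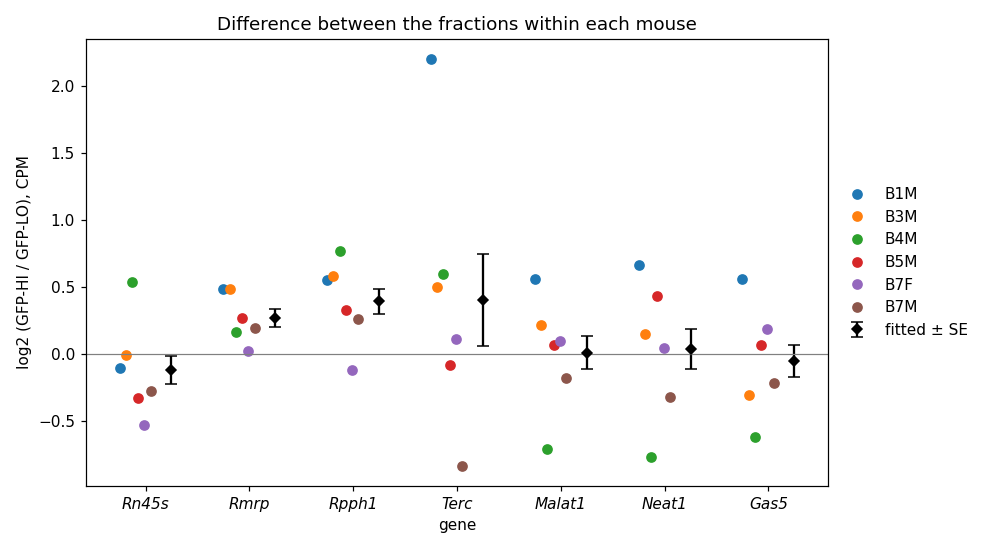
Log2 ratio of GFP-HI to GFP-LO for each RNA in each of the 6 mice (coloured points), with edgeR's fitted log2 fold change ± SE (black diamonds). The Rmrp points run from 0.02 to 0.49, whereas the points of Malat1, Neat1 and Gas5 lie on both sides of 0.

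Most of the RNAs differed between mice. The animal, its sort, its pool of cells and its library preparation cannot be told apart in these differences. The test for any such difference in the same edgeR fit called 6 of the 7 RNAs, all but Terc, against 9.68% of all tested genes. The background depends on abundance: of the 1143 genes with a mean of at least 100 CPM, 41.4% were called. The fold between the highest and the lowest mouse mean was 7.29 for Neat1 (B5M over B1M, adjusted p = 9.1e-05), 3.70 for Malat1 (B7M over B1M, 3.9e-04), 2.71 for Gas5 (B7F over B1M, 0.0027) and 2.54 for Rn45s (B4M over B1M, 0.0017). It was 2.46 for Rpph1 and 2.36 for Rmrp (both B3M over B7M; adjusted p = 9.5e-04 and 7.0e-05). Terc had a 2.38-fold range that did not pass (adjusted p = 0.56). Without B3M the test of Rpph1 did not pass (adjusted p = 0.057), nor did that of Gas5 without B7F (adjusted p = 0.077). Without B1M and B3M together, whose GFP-HI libraries had few detected genes, the test called 6 of the 7 RNAs, again all but Terc. Of all 11945 genes tested in that fit it called 1754, and the share among abundant genes was not taken for it. The adjusted p was then 0.0039 for Neat1, 3.0e-06 for Malat1, 1.2e-04 for Gas5, 0.0014 for Rn45s, 0.0082 for Rpph1 and 0.0010 for Rmrp. The SD of the log2 mouse means was 1.17 for Neat1 and 0.80 for Malat1, above that of 99.2% and 96.2% of genes with at least 100 CPM, whose median was 0.22.

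The mice fell into opposite orders for Rmrp and Rpph1 on one side and Malat1 and Neat1 on the other. Rmrp and Rpph1 were lowest in B5M and B7M, the 2 mice in which Malat1 and Neat1 were highest. The ratio of Rmrp to Malat1, which needs no scaling, was 2.82 to 3.399 in both libraries of B1M and B3M and 0.43 to 0.56 in both libraries of B5M and B7M. Over the 12 libraries Pearson's r was 0.95 for Rmrp with Rpph1, −0.76 for Rmrp with Malat1 and −0.78 for Rmrp with Neat1. These points share mice and scaling, and the values are a description. Terc, at low counts, had r of 0.69 with Rmrp, 0.70 with Rpph1, −0.29 with Malat1 and −0.32 with Neat1. For its mouse means r was 0.88 with Rmrp and with Rpph1, −0.64 with Malat1 and −0.66 with Neat1. Rn45s and Gas5 followed neither order: r was between −0.31 and 0.37 for Rn45s with each of the other RNAs, and it was −0.25 for Gas5 with Rmrp and 0.27 with Malat1.

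Exonic length moved with this order for part of the set. The 52 genes of 221 to 484 bases, of like length to Rpph1, were above the mean of the mice by a median log2 of 0.42 in B1M and 0.28 in B3M and below it by 0.38 in B5M and 0.47 in B7M. Measured against genes of like length, the range of the mouse means fell from log2 1.24 to 0.60 for Rmrp and from 1.298 to 0.70 for Rpph1. For Malat1 it was 1.89 and, against 1874 genes of 4681 to 10469 bases, 1.68. For Neat1 it was 2.87 and 2.90, for Gas5 1.44 and 1.54, and for Rn45s 1.34 in each case. The genes of like length to Neat1 stayed within 0.03 of the mean of the mice in each mouse. The direction depended on the band of lengths: the 159 genes of at most 500 bases as a whole, which include very short RNAs, were below the mean of the mice by 0.48 in B1M and 0.22 in B3M and above it by 0.42 in B4M and 0.30 in B7F. What sets these differences between mice was not tested.

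**Figure D4:**
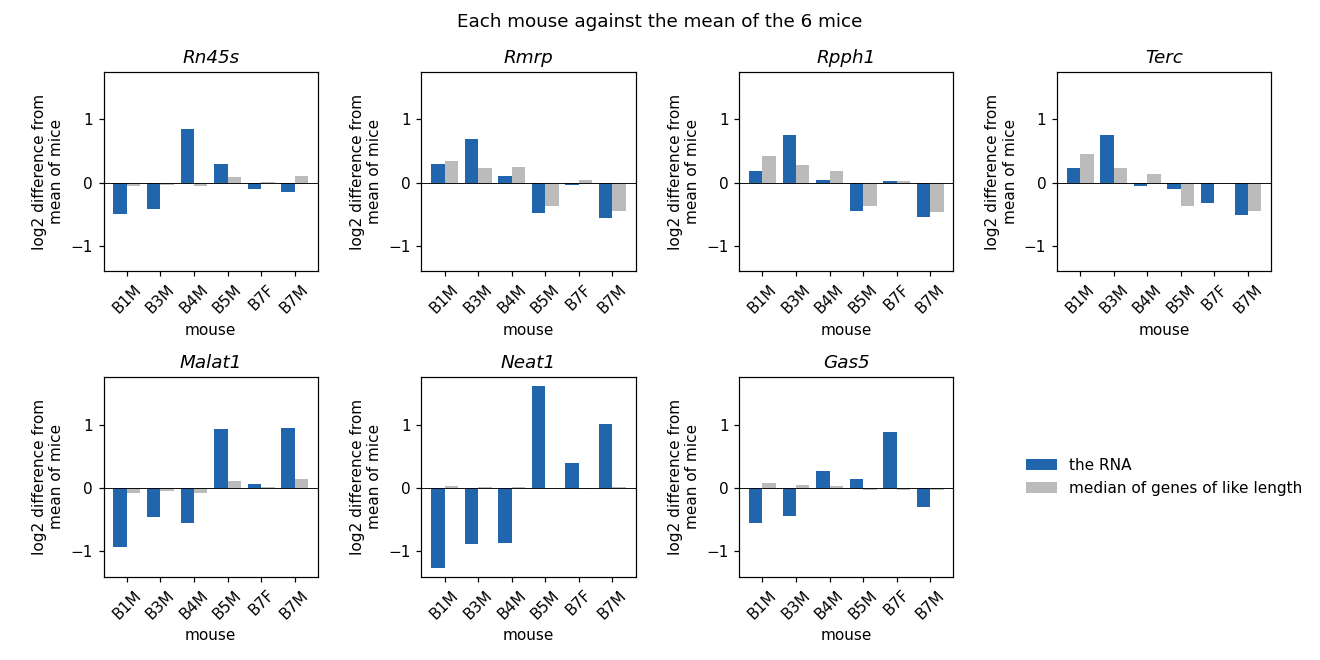
Log2 difference of each mouse from the mean of the 6 mice for each RNA (blue bars) and the median of tested genes of like exonic length (grey bars), averaged over both fractions. For Rmrp and Rpph1 the grey bars follow the blue ones in sign in 5 and 6 of 6 mice, whereas for Neat1 the grey bars stay within 0.03 of 0.

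The genes most like each RNA over the 12 libraries, by Pearson's r of log2 CPM among all tested genes, differed between the groups. For Rn45s they were Lars2 (0.95), the mitochondrial leucyl-tRNA synthetase gene, with Mir466d (0.92) and Gm5478 (0.90). Lars2 ran from 3455 to 23390 CPM in GFP-HI and was lowest in B1M and highest in B4M in both fractions, as Rn45s was. Whether the Lars2 and Rn45s rows hold reads of the same origin was not tested. For Rmrp they were Rps27l (0.97), Rpl31-ps12 (0.96) and Nop10 (0.96), and for Rpph1 Rps27l (0.98), Ndufa6 (0.96) and Rpl36 (0.95), all of 407 to 695 bases. For Malat1 they were Usp24 (0.97), Eaf1 (0.97) and Brwd1 (0.97), and for Neat1 Brwd1 (0.97), Mll3 (0.96) and Atp13a3 (0.96), of 4238 to 16820 bases. For Gas5 they were the small RNAs Mir677 (0.96), Snord111 (0.94) and Snord57 (0.94). For Terc, whose counts are low, they were Arl8a, Mllt1 and Snx1 (0.93 each).

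The proteins that work with these RNAs were compared by lists of their genes, and edgeR called none of the genes in the 12 lists. It called only 0.529% of all 11719 tested genes (62 genes), so the absence of calls in short lists says little about these genes. Of 15 tested genes of RNA polymerase I and its factors 10 had a negative log2 fold change, with a median of −0.11 against −0.02 over all tested genes. Of all 11719 tested genes 6218 were negative. Polr1e, a subunit of the polymerase, had −0.56 (edgeR adjusted p = 0.66), Taf1c, of its promoter factor, −1.28 (0.75) and the large subunit gene Polr1a −0.29 (0.79). Of 30 genes for processing of the precursor 21 were negative, with a median of −0.07. Here Utp6 had −0.52 (0.64), Utp15 −0.35 (0.66) and Fbl, the methyltransferase fibrillarin, −0.26 (0.80).

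Genes for the proteins of RNase P and RNase MRP went in both directions, and none passed. Of 10 tested, 4 were positive and 6 negative, with a median of −0.11, and all were low: the summed level of the list was 53.4 to 106 CPM per library. Pop1 had log2 −0.31 (edgeR adjusted p = 0.88), Rpp21 −0.60 (0.84) and Rpp38 −0.82 (0.86). Without B1M and B3M the values of Pop1 and Rpp38 were 0.088 and 0.039. RNA polymerase III, which makes Rmrp and Rpph1, was represented by 28 tested genes with a median of −0.05. Snapc3, of the complex that binds the promoters of small nuclear RNAs, had 0.66 (0.64), Crcp −0.40 (0.74) and Polr3a 0.14 (0.89).

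Among telomerase and shelterin genes the median over 15 was −0.07. Tert, the catalytic subunit, averaged 1.55 ± 1.19 CPM in GFP-HI against 3.43 ± 0.65 CPM (SD, n = 6 each; log2 −1.48 ± 0.66 SE, edgeR adjusted p = 0.66), and Nop10, a protein of box H/ACA particles, had 0.30 (0.71). For the particle of Rn7sk, the RNA that was not analysed, 5 of 6 genes were positive with a median of 0.04. Larp7, which binds that RNA, had 0.35 (0.68) and Ccnt1, a cyclin of P-TEFb, −0.32 (0.79).

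The protein genes of nuclear bodies had medians near 0. The 14 paraspeckle genes had a median of −0.05, with Hnrnpk at log2 −0.17 (edgeR adjusted p = 0.70), Tardbp at −0.11 (0.83) and Nono at −0.06 (0.91). The 14 nuclear speckle genes had a median of −0.02, with Son at −0.16 (0.68), Srrm1 at −0.22 (0.73) and Srsf1 at −0.08 (0.85). The 10 factors of nonsense-mediated decay, the pathway that degrades Gas5, had a median of −0.14, with Smg1 at −0.21 (0.70) and Upf1 at −0.10 (0.86). Among 14 other host genes of small nucleolar RNAs, with a median of −0.07, Snhg12 had −0.35 (0.70), Snhg17 −1.06 (0.72) and Snhg1 0.19 (0.79).

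Of 10 tested genes for other small structural RNAs, 9 had the sign of higher values in GFP-HI, the median log2 fold change was 0.20, and 7 were called between mice, against 9.68% of all tested genes and 54.7% of the 243 tested genes of at most 500 bases. For comparison, the median was 0.13 over 204 tested short genes (up to 500 bases, histone clusters and the 7 RNAs excluded), and 5501 of all 11719 tested genes had a positive sign. The list holds the 3 Rprl genes, and 3 of its members had an unadjusted p under 0.05 in edgeR: Rprl2, Rprl3 and the vault RNA gene Vaultrc5 (log2 0.40, adjusted p = 0.43). DESeq2 called these 3. Of 13 other long nuclear noncoding RNAs 6 were positive, with a median of −0.08, and Firre had 0.29 (adjusted p = 0.77), Pvt1 −0.40 (0.80) and Xist 0.10 (0.87).

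None of 4 markers of the sorted cells was called between the fractions, against 0.529% of all tested genes. Krt5 and Krt14, the keratins of the basal layer, had log2 −0.16 and −0.14 (edgeR adjusted p = 0.42 and 0.76), Trp63, a transcription factor of stratified epithelia, −0.05 (0.88) and Itga6, which encodes the sorted antigen, −0.12 (0.77). Summed suprabasal markers ran from 451 to 1620 CPM in GFP-HI and from 349 to 1287 CPM in GFP-LO. Their part in the values of the noncoding RNAs was not tested.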

How the data were processed

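The authors deposited 1 table of raw read counts per gene for the 12 libraries. Per the submitters' processing notes the build was mm10 (GRCm38) and the tools were featureCounts, bcl2fastq 2.20.0, DESeq2, FastQC and R 3.4.1. For the aligner, the annotation release, strandedness and multiply matching reads, nothing is stated in the sources used here. Per the labels' protocols, libraries were made from total RNA with a low-input kit.

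Counts were fitted in R 4.3.3 with edgeR 4.0.16 (quasi-likelihood, robust; filter with minimum count 10 and minimum total 15; TMM scaling; two-sided; Benjamini-Hochberg over all tested genes, threshold 0.05). CPM are counts scaled to a common TMM-adjusted library size. Mouse was a block, since sample titles name the animal: deviations from group means correlated at 0.19 to 0.48 within mice and at most 0.27 between mice. Differences between mice were tested with the F test of the mouse terms. Log2 CPM used a pseudocount of 0.5. The fit was tested on simulated counts.

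The RNAs and gene lists were chosen with earlier results of these data known. Of 248 listed symbols 228 matched a row, 12 by synonym. Named were the RNAs themselves, and from each list any called gene, the first listed and the 2 with the smallest p, with 3 most alike genes per RNA and 4 markers (Krt5, Krt14, Trp63, Itga6). A gene that the rule also named is not reported here. Vaultrc5 and Snord47 were named after their values were seen. Alternatives were other scalings, DESeq2 1.42.0, no filter, no block and leaving out mice. The comparison with genes of like length (0.67 to 1.5 times the length) and the sum of Rpph1 with its copies were added after the data were seen.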

Additional observations from a re-analysis of the deposited data

Results flagged for a closer look

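Among 23 sets of 6 values (levels and within-mouse differences of the 7 RNAs, and the share of Rn45s), 2 held a value far from the others by Dixon's test at the 95% level. Chance marks about 1 in 20 such sets. The level of Rn45s in the GFP-HI library of B4M was 890213 CPM, against at most 448605 CPM in the other 5 GFP-HI libraries. Its share of that library, 59.8%, did not stand apart by the same test, and the GFP-LO library of B4M was also the highest of its group. The level of Gas5 in the GFP-HI library of B7F was 1522 CPM, against at most 875 CPM in the other GFP-HI libraries, and B7F was highest in GFP-LO as well.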

How the results depend on the processing

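The mouse is the block of the paired analysis. With no replicate block, edgeR called 0 genes between the fractions over all genes (440 with an unadjusted p under 0.05), 0 of the 7 RNAs and 0 partner genes. The other counts that moved are given by setting. Scaling by totals with Rn45s gave 1 of the 7 RNAs between the fractions and 1967 genes between mice. DESeq2 gave 2 of the 7 RNAs, 143 genes and 3 partner genes between the fractions and 2029 genes between mice. No filter gave 3 of the 7 RNAs, 172 genes, 4 partner genes and 2338 genes between mice. Without B1M and B3M together there were 0 of the 7 RNAs, 151 genes, 1 partner gene (Rprl2, log2 0.55, adjusted p = 0.032) and 1754 genes between mice. Leaving out 1 mouse at a time gave 0 to 1 of the 7 RNAs, 32 to 95 genes and 0 to 1 partner genes between the fractions, and 684 to 1527 genes and 5 to 6 of the 7 RNAs between mice. The lowest counts of genes between the fractions were 33 without B3M and 32 without B4M, and the lowest between mice 684 without B5M and 729 without B7M. The cause of these changes was not tested.

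Log2 fold changes that changed sign were those of Malat1 (−0.025 with totals without Rn45s, −0.0045 with no filter, −0.023 with no replicate block, −0.18 without B1M and B3M), Neat1 (−0.15), Terc (−0.050), Pop1 (0.088) and Rpp38 (0.039), the last 4 without B1M and B3M. Leaving out single mice moved Malat1 between −0.097 and 0.15, Neat1 between −0.083 and 0.19 and Gas5 between −0.17 and 0.057. The difference in Rn45s share was negative in each setting, from −4.69 to −1.32 points with 1 mouse left out. Low depth limits Terc and Tert, with 38 to 180 counts per library for Terc.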

Other observations

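The differences between the fractions of the same mouse were also alike for some RNAs. Over the 6 mice Pearson's r of these log2 differences was 0.86 for Neat1 with Gas5, 0.85 for Malat1 with Gas5 and 0.89 for Rn45s with Rpph1, whereas it was −0.64 for Rn45s with Gas5. Each difference uses the same 2 libraries and scaling for both RNAs, and B4M was at an end of the range for 5 of them: its GFP-HI library was above its GFP-LO library by log2 0.53 for Rn45s and 0.76 for Rpph1, the largest values, and its Malat1, Neat1 and Gas5 values were −0.71, −0.77 and −0.62, the lowest.

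Length also went with how often genes differed between mice: 54.7% of 243 tested genes of at most 500 bases were called, 7.25% of 6108 genes of over 1500 and up to 4000 bases and 19.9% of 544 genes of over 8000 bases. The classes were chosen after the values were seen.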
